A study of Arabidopsis thaliana with 12 samples.

Results

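The chloroplast genome of Arabidopsis thaliana carries its own genes for photosynthesis and for gene expression, and 69 of them were read by a probe set of the Affymetrix ATH1 array. A gene was taken when the array annotation gave its probe set exactly 1 gene and that gene lay on the plastid chromosome, and no gene had more than 1 such probe set. These are 69 of 22746 probe sets tested, and 69 of 78 distinct protein-coding plastid symbols in the gene table of assembly TAIR10.1. By class, 7 belong to photosystem I (ycf3 and ycf4, which help assemble it, included), 15 to photosystem II, 6 to the cytochrome b6f complex, 6 to the ATP synthase and 10 to the NDH complex. A further 15 encode ribosomal proteins (7 of the large and 8 of the small subunit), 4 encode RNA polymerase subunits, 1 is rbcL, and the other 5 are accD, clpP, matK, ccsA and cemA.

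The seedlings were 14 days old, grown on agar at 21 °C in a light-dark cycle, and were moved to 4 °C for 12 h or 24 h or sampled unchilled at 0 h. The wild type was Columbia gl1 carrying a CBF2::LUC transgene, a luciferase reporter driven by the promoter of a cold-induced transcription factor gene. The other genotype was rcf1-1, 1 mutant allele of a nuclear DEAD-box RNA helicase gene, and the labels do not say whether it carries the same transgene. Each of the 6 groups (WT or rcf1-1 at 0, 12 or 24 h) had 2 arrays, described as biological replicates of whole seedlings. Values are log2 RMA values, so a difference of 1 is a 2-fold change, and levels of different genes are not set against each other because each probe set has its own response.

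A plant cell holds many copies of the plastid genome, and most of its genes lie in units that are transcribed together and then cut into shorter RNAs. The photosynthesis genes are transcribed mainly by the plastid-encoded polymerase, whose core is made of the rpo gene products, while a phage-type polymerase encoded in the nucleus serves some of the genes for gene expression. Plastid mRNAs are as a rule without a stable poly(A) tail, and the standard labelling of these arrays primes from poly(A), so that what a probe set reads here can follow tail state as well as transcript amount. In whole seedlings, fewer or smaller chloroplasts and less RNA per chloroplast cannot be told apart.

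Replicate arrays correlated over the 69 genes at r = 0.995 to 0.996 at 0 h and 12 h, but at r = 0.822 in wild type and 0.853 in rcf1-1 at 24 h. The replicate 2 arrays at 24 h stood apart in both genotypes. Their 5′ minus 3′ difference for the Arabidopsis GAPDH control probe sets was −5.13 in wild type and −4.45 in rcf1-1, against −1.06 to −0.29 on the other 10 arrays. A larger deficit of 5′ signal is seen with more degraded RNA or shorter labelled products. Because all groups share 1 estimate of the spread, results are given with all 12 arrays and, where it matters, without those 2 arrays. Array medians over all probe sets lay between 4.03 and 4.21, and a group mean below 4.03 is treated as close to the lowest signals. This held for ndhF in all 6 groups, for petG and rps14 in 4 each, and for petD in 2. The paired shoot markers lay well above the array medians on every array (RCA, the activase of Rubisco, 11.7 to 12.9; the antenna proteins LHCB4.1, 10.6 to 11.8, and LHCB4.2, 8.89 to 12.1). LHCB4.2 in both genotypes and RCA in rcf1-1 were called lower at 24 h. EXPA7, an expansin of root hairs and the 1 paired root marker, was low, at 3.76 to 4.95. Of the fixed markers, 3 of 10 for shoot and 1 of 8 for root were paired with a probe set.

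**Figure D1:**
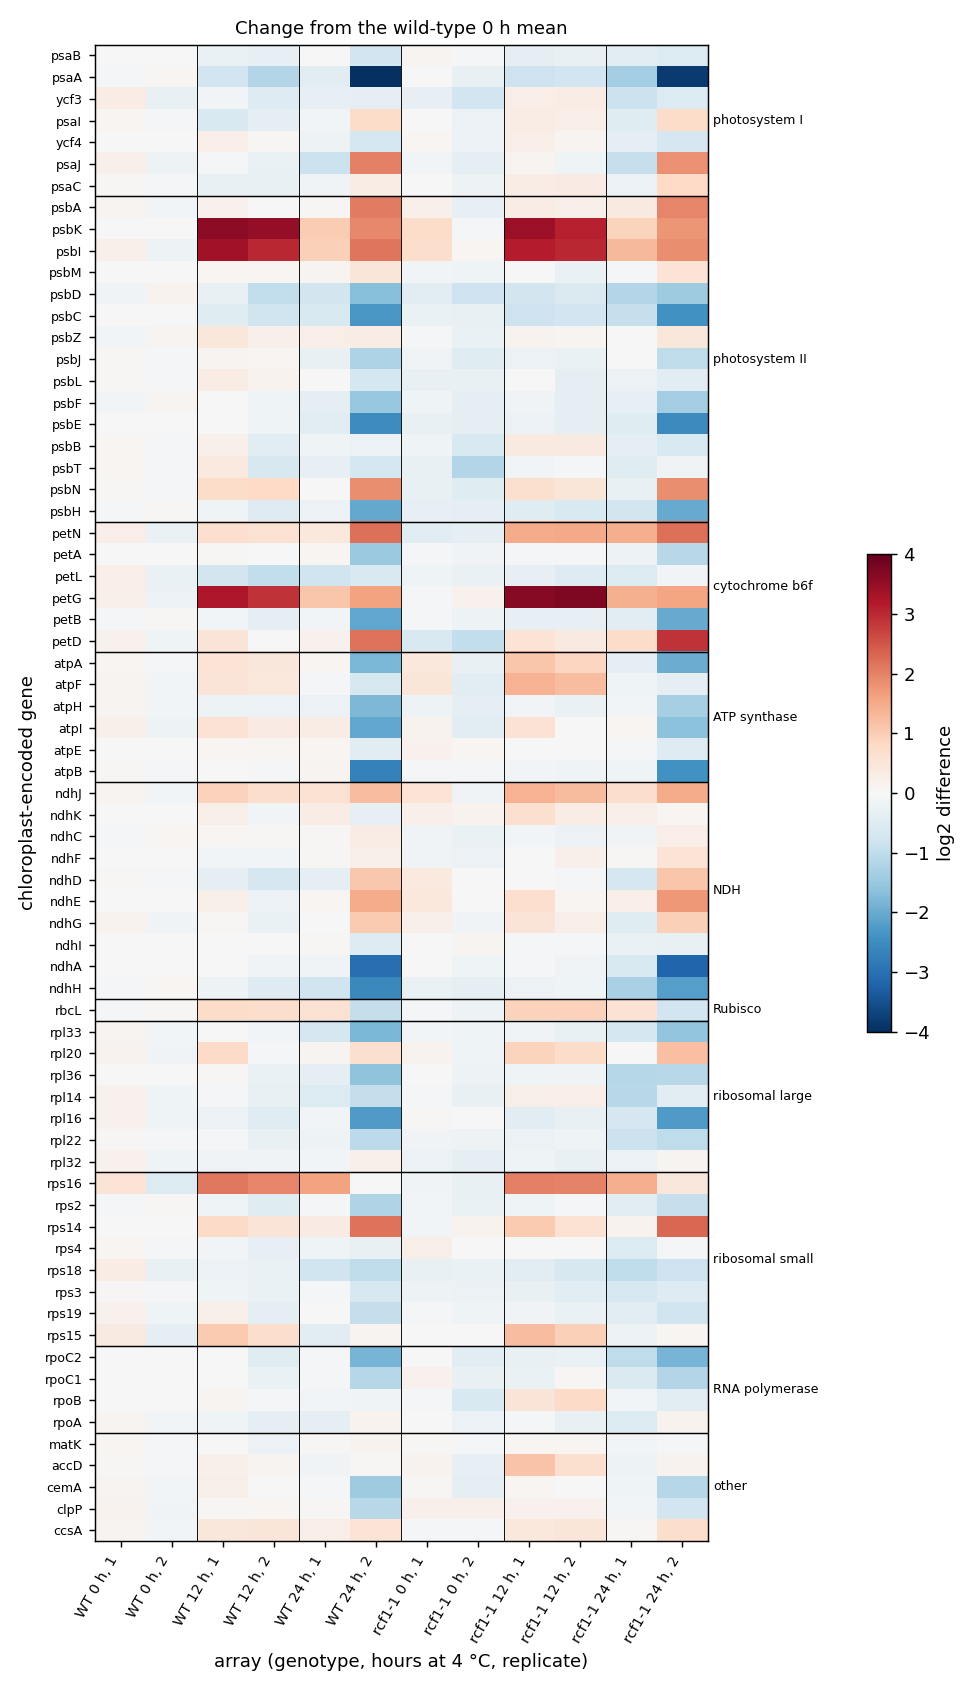
Each row is a chloroplast-encoded gene, grouped by class, and each column an array; colour gives the log2 value minus that gene's mean over the wild-type 0 h arrays. psbK, psbI, petG and rps16 are red on all 4 arrays at 12 h, and the replicate 2 columns at 24 h differ from their replicate 1 columns in many rows, in both genotypes.

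After 12 h at 4 °C, a few chloroplast genes rose strongly while most of the 69 did not pass the test. In wild type psbK and psbI, which encode small membrane subunits of photosystem II, petG, a small subunit of cytochrome b6f, and rps16, a protein of the small ribosomal subunit, passed the test as higher, and petL, another small subunit of cytochrome b6f, as lower. In rcf1-1 the same 4 genes rose, and 6 more passed with them. In wild type 5 of the 69 were called (7.25%), beside 12.0% of all probe sets; 4 were higher, beside 6.05%, and 1 lower, beside 5.92%. In rcf1-1 10 were called (14.5%), beside 12.2% of all probe sets; all 10 were higher, beside 5.46%, and none was lower, beside 6.78%. Leaving out 1 array at a time gave 3 to 6 calls in wild type, with 3 without either wild-type 12 h array. It gave 3 to 11 in rcf1-1, with 3 to 6 without one of the 4 rcf1-1 arrays compared.

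psbK (locus tag ArthCp005) read 7.82 and 7.80 on the wild-type 0 h arrays and 11.39 and 11.33 at 12 h. In rcf1-1 it read 8.53 and 7.74 at 0 h and 11.21 and 10.92 at 12 h. The groups did not overlap in either genotype, and the gap between them exceeded the spread between replicates. The difference was 3.55 ± 0.36 in wild type (standard error, limma adjusted p = 9.44e-05), an 11.8-fold rise, and 2.94 ± 0.36 in rcf1-1 (adjusted p = 0.000332).

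psbI (ArthCp006), its neighbour on the chromosome, read 8.05 and 7.62 at 0 h and 11.18 and 10.87 at 12 h in wild type. In rcf1-1 the values were 8.55 and 7.93 at 0 h and 10.97 and 10.86 at 12 h. All 4 arrays at 12 h lay more than 2 above all 4 at 0 h. The rise was 3.19 ± 0.37 in wild type (adjusted p = 0.000229) and 2.68 ± 0.37 in rcf1-1 (adjusted p = 0.000676).

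petG (ArthCp041) read 2.73 and 2.25 at 0 h and 5.73 and 5.39 at 12 h in wild type. In rcf1-1 it read 2.44 and 2.67 at 0 h and 6.13 and 6.21 at 12 h. It rose by 3.07 ± 0.25 in wild type (adjusted p = 2.03e-05) and by 3.62 ± 0.25 in rcf1-1 (adjusted p = 6.45e-06). Its 0 h values are close to the lowest signals, so the size of these rises is uncertain. Without the 2 doubted arrays these 3 genes were called in both genotypes with smaller errors. Those arrays enter the 12 h comparison only through the shared estimate of the spread, so the differences could not change.

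rps16 (ArthCp004) read 7.49 and 6.37 at 0 h and 9.05 and 8.90 at 12 h in wild type, and in rcf1-1 6.79 and 6.64 at 0 h and 8.93 and 8.90 at 12 h. The unchilled wild-type replicates differed by 1.12, and both chilled arrays still lay above them. The rise was 2.04 ± 0.51 in wild type (adjusted p = 0.0243) and 2.2 ± 0.51 in rcf1-1 (adjusted p = 0.0157). Leaving out any 1 of 3 wild-type arrays (0 h replicate 2, 12 h replicate 1 or 12 h replicate 2) ended the wild-type call. Leaving out any of the 4 rcf1-1 arrays compared ended the rcf1-1 call. With each array left out in turn, kept calls included, the wild-type difference ran from 1.48 to 2.60. rps16, psbK and psbI are the third, the fourth and the fifth of the 69 genes in order along the chromosome. The genes on either side of them did not pass: matK, an intron maturase, differed by −0.10 and atpA, the alpha subunit of the ATP synthase, by 0.51 in wild type at 12 h.

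**Figure D2:**
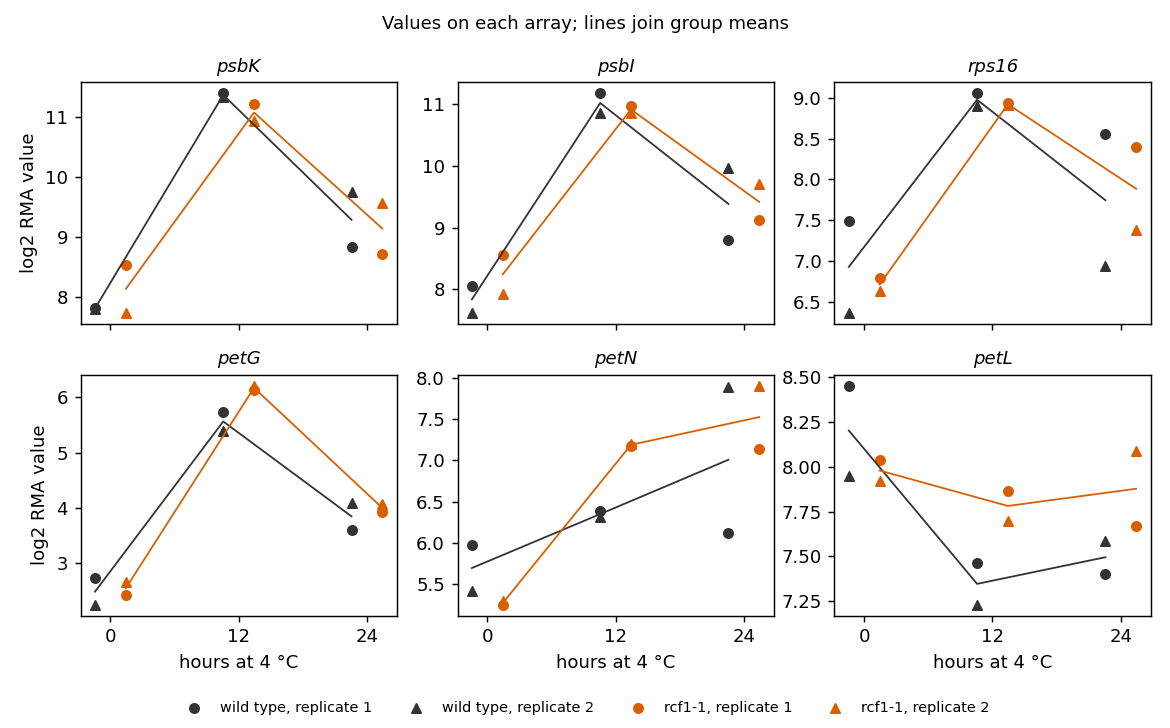
Log2 RMA values (vertical axes, a separate range per panel) of 6 genes after 0, 12 and 24 h at 4 °C (horizontal axis); circles are replicate 1, triangles replicate 2, grey is wild type, orange is rcf1-1 lines join group means, and the genotypes are shifted sideways. psbK, psbI, petG and rps16 peak at 12 h in both genotypes, petN is higher in rcf1-1 than in wild type at 12 h, and petL is lower at 12 h in wild type.

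The 4 genes were lower again at 24 h than at 12 h. In wild type psbK read 8.83 and 9.74 at 24 h, psbI 8.80 and 9.97, petG 3.61 and 4.09, and rps16 8.55 and 6.94. In rcf1-1 psbK read 8.71 and 9.57, psbI 9.13 and 9.70, petG 3.93 and 4.08, and rps16 8.39 and 7.38. Each 24 h value lay below every 12 h value of that gene and genotype, a comparison for which no test was made. The sample labels used here give no clock time of sampling. If all seedlings were moved at the same hour, the 12 h samples differ from those at 0 h and 24 h in time of day too. No unchilled seedlings were sampled at 12 h, so that cold and time of day cannot be told apart.

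petL (ArthCp040), the gene next to petG and in the same transcription unit, read 8.45 and 7.95 at 0 h and 7.46 and 7.23 at 12 h in wild type. It fell by 0.85 on the log2 scale (standard error 0.23, limma adjusted p = 0.038). In rcf1-1 it read 8.04 and 7.92 at 0 h and 7.86 and 7.70 at 12 h, a difference of −0.20 ± 0.23 that did not pass. The petL call was lost in 8 of 21 alternatives, 7 of them the omission of a single array. petL and petG therefore moved in opposite directions in wild type, and the rest of their unit did not pass at 12 h: psaJ of photosystem I differed by −0.18, rpl33 of the large ribosomal subunit by −0.07 and rps18 of the small subunit by −0.24.

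Of the 6 genes called at 12 h in rcf1-1 but not in wild type, petN, a further small subunit of cytochrome b6f, had the largest rise. It read 5.25 and 5.29 at 0 h and 7.18 and 7.20 at 12 h in rcf1-1, a rise of 1.92 ± 0.47 (limma adjusted p = 0.0215). In wild type it read 5.98 and 5.42 at 0 h and 6.38 and 6.32 at 12 h, a difference of 0.65 ± 0.47 (adjusted p = 0.5). The rcf1-1 call for petN was lost when any of its 4 arrays was left out.

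atpF, which encodes a stalk subunit of the ATP synthase, read 8.52 and 7.61 at 0 h and 9.42 and 9.25 at 12 h in rcf1-1, a rise of 1.27 ± 0.30 (limma adjusted p = 0.0169). accD, the plastid-encoded subunit of acetyl-CoA carboxylase for fatty acid synthesis, rose by 0.98 ± 0.24 (adjusted p = 0.0235) in rcf1-1. rpoB, the beta subunit of the plastid-encoded polymerase, read 4.43 and 3.87 at 0 h and 4.99 and 5.23 at 12 h, a rise of 0.96 ± 0.24 (adjusted p = 0.0251). ndhJ of the NDH complex rose by 1.13 and rps15 of the small ribosomal subunit by 1.09. Their wild-type differences at 12 h were 0.48 for atpF, 0.15 for accD, 0.03 for rpoB, 0.80 for ndhJ and 0.88 for rps15, and none of these passed.

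None of the 69 differed between genotypes in its 12 h response by the test of that difference, beside 0.0879% of all probe sets, and 4 of them had an unadjusted p under 0.05. For petN the difference of responses was 1.26 (95% interval −0.20 to 2.73) and for rpoB 0.93 (0.17 to 1.69, limma adjusted p = 0.774). Without the 24 h replicate 2 arrays the difference passed for petN (adjusted p = 0.0148), psaI (0.0165) and ycf3 (0.0417), or 3 of 69 beside 3.0% of all probe sets, each with the more positive response in rcf1-1. At 24 h the difference of responses passed for none of the 69, beside 1.1%, and without those arrays for petD and petN, beside 13.8%. psaI, a small subunit of photosystem I, read 10.05 and 9.92 at 0 h and 9.39 and 9.62 at 12 h in wild type, and 10.01 and 9.75 at 0 h and 10.27 and 10.25 at 12 h in rcf1-1, and so moved in opposite directions. ycf3, a photosystem I assembly factor, read 8.53 and 7.92, then 8.10 and 7.70 in wild type, and 7.88 and 7.46, then 8.50 and 8.52 in rcf1-1.

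The 2 genotypes used separate arrays, and their 12 h differences ran alike. Over the 69 genes the correlation was r = 0.90, and 0.73 over the 65 left without petG, psbK, psbI and rps16; genes of 1 transcription unit are not independent points. All 4 wild-type calls for higher expression were among the 10 of rcf1-1. These are 4 of 69 genes, beside 3.89% of all probe sets called higher in both. Shared calls were common over all probe sets too. There 885 were called higher in both, of 1377 in wild type and 1242 in rcf1-1. The 12 h arrays lay above the 0 h arrays in both genotypes for 16 of 69 genes, beside 17.8% of all probe sets. They lay below in both for 9 genes, beside 22.4%.

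**Figure D3:**
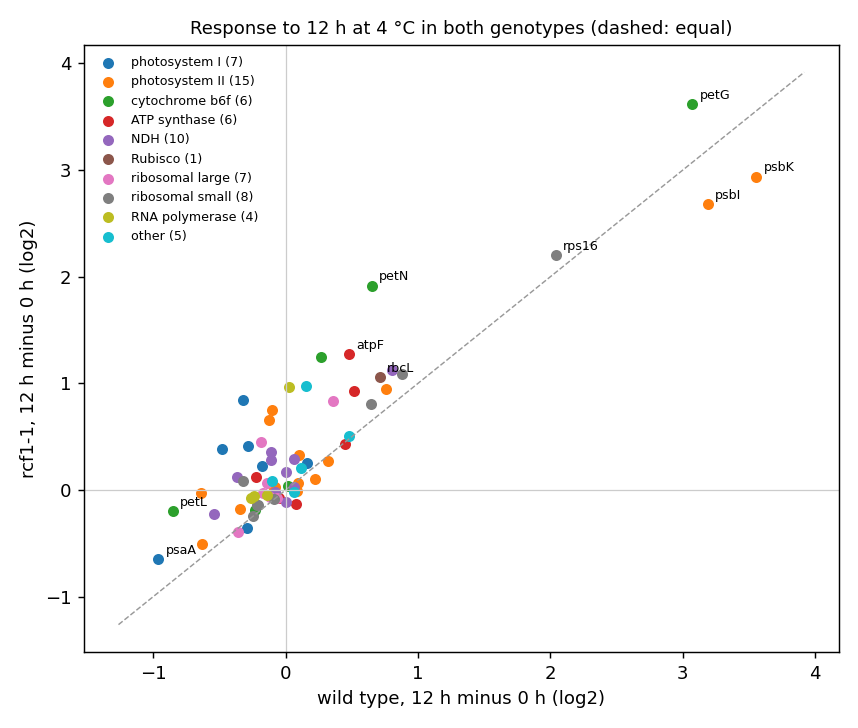
Each point is a chloroplast-encoded gene, with its log2 difference between 12 h and 0 h in wild type (horizontal) and in rcf1-1 (vertical), coloured by class; the dashed line marks equal differences. petG, psbK, psbI and rps16 lie far from the other genes and near the line, and petN lies above it.

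With the 24 h replicate 2 arrays left out, the estimates at 12 h stay as they were, the median standard error of a genotype's 12 h difference falls from 0.34 to 0.14, and more genes pass. In wild type 12 genes were then higher at 12 h, beside 12.7% of all probe sets, and 8 lower, beside 15.9% (28.6% in either direction). In rcf1-1 22 were higher, beside 12.5%, and 4 lower, beside 17.0% (29.5% in either direction). The 12 wild-type genes were all among the 22 of rcf1-1. They add atpA, ccsA, ndhJ, petN, psbN, rbcL, rps14 and rps15 to the 4 genes named above. rbcL, the large subunit of the carbon-fixing enzyme Rubisco, read 9.64 and 9.75 at 0 h and 10.42 and 10.40 at 12 h in wild type. In rcf1-1 it read 9.65 and 9.49 at 0 h and 10.63 and 10.62 at 12 h. In this fit rbcL rose by 0.71 ± 0.11 (limma adjusted p = 0.000136) in wild type and by 1.06 ± 0.11 (adjusted p = 2.96e-06) in rcf1-1. With all 12 arrays its adjusted p was 0.453 and 0.205.

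The genes lower at 12 h in that fit in both genotypes were psaA, psaB, psbC and rpl16. psaA and psaB encode the reaction-centre proteins of photosystem I and psbC the CP43 antenna protein of photosystem II, all 3 large proteins, while rpl16 encodes a protein of the large ribosomal subunit. psaA read 10.72 and 10.90 at 0 h and 10.06 and 9.64 at 12 h in wild type, and 10.79 and 10.53, then 9.97 and 10.06 in rcf1-1. Its difference was −0.96 ± 0.14 in wild type (limma adjusted p = 0.000114) and −0.65 ± 0.14 in rcf1-1 (adjusted p = 0.00301), and with all 12 arrays it was not called. rps14, which is transcribed with psaA and psaB, was called higher in that fit in both genotypes, but its means at 0 h and 12 h all lie close to the lowest signals and no size is given. psbA, the D1 protein of photosystem II that is replaced fastest in light, differed by 0.10 in wild type and 0.33 in rcf1-1 at 12 h and passed in neither fit.

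rbcL, the 1 gene of its class, is given above. Over the other 9 classes the median difference at 12 h in wild type ran from −0.29 for photosystem I to 0.26 for the ATP synthase, and in rcf1-1 it ran from −0.05 for the RNA polymerase genes to 0.64 for cytochrome b6f. The median over the 69 was −0.08 in wild type and 0.12 in rcf1-1, beside −0.01 and 0.00 over all probe sets. These medians are of the size of shifts between replicates. The median of replicate 2 minus replicate 1 was −0.10 at 0 h and −0.21 at 12 h in wild type. In rcf1-1 it was −0.18 and −0.07. Photosystem II held 2 called genes of 15 in each genotype, cytochrome b6f 2 of 6 in each, and the NDH complex 0 of 10 in wild type and 1 of 10 in rcf1-1. Of the 15 ribosomal protein genes 1 passed in wild type and 2 in rcf1-1. Of the 4 polymerase genes rpoB alone passed, in rcf1-1; rpoC1 and rpoC2, which are transcribed with it, differed there by −0.05 and −0.06.

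At 24 h, 7 of the 69 were called in wild type, beside 13.2% of all probe sets, 3 of them higher (beside 5.83%) and 4 lower (beside 7.33%). In rcf1-1 5 were called, beside 20.8%, 4 of them higher (beside 8.38%) and 1 lower (beside 12.4%). In wild type psbI (1.55 ± 0.37, limma adjusted p = 0.0182), psbK (1.48 ± 0.36, 0.0215) and petG (adjusted p = 0.00488) were still above 0 h. In rcf1-1 psbI (1.18, adjusted p = 0.0445) and petG (0.00236) were above 0 h, and psbK differed by 1.00 (0.0748). All the petG means at 0 h and 24 h lie below 4.03, so no size is given for it. The psbI and psbK calls at 24 h in wild type end without 24 h replicate 2 of wild type, where psbK differs by 1.02 and psbI by 0.97, and without either wild-type 0 h array. Both pass when replicate 2 of both genotypes is left out, with the smaller error of that fit. The wild-type petG call ends without 0 h replicate 2. The rcf1-1 call for psbI was kept in 8 of 21 alternatives.

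petN and petD rose in rcf1-1 at 24 h. petN read 7.14 and 7.91 there against 5.25 and 5.29 at 0 h, a rise of 2.25 ± 0.47 (limma adjusted p = 0.00676), and 6.12 and 7.89 at 24 h in wild type, which did not pass. petD, subunit IV of cytochrome b6f, read 4.70 and 6.85 at 24 h against 3.37 and 2.98 at 0 h. The rise was 2.61 ± 0.68 (limma adjusted p = 0.0199). Its size is uncertain, since the 0 h values are close to the lowest signals and the 24 h arrays differ by 2.15. Without both replicate 2 arrays the petN rise was 1.87 and the petD rise 1.53, and both were called. The petN call ends without rcf1-1 0 h replicate 1, and the petD call without either rcf1-1 0 h array or 24 h replicate 2. The higher value of each gene came from replicate 2.

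The genes called lower at 24 h in wild type were ndhH, rpl33, psbD and rps18. ndhH, a subunit of the NDH complex, read 7.07 and 7.22 at 0 h and 6.37 and 4.57 at 24 h, a fall of 1.68 on the log2 scale with all arrays and of 0.78 without both replicate 2 arrays. psbD, the D2 reaction-centre protein of photosystem II, read 10.42 and 10.73 at 0 h and 9.85 and 8.87 at 24 h, and rpl33 10.82 and 10.62, then 10.05 and 8.89. The unchilled and 24 h arrays of these 3 genes did not overlap, and the replicate 2 array was the lower of the 24 h pair each time. Such non-overlap was common among the 69 genes in wild type at 24 h and does not set these 3 apart. Its share over all probe sets is not given. rps18 was nearly the same on both 24 h arrays, 8.93 and 8.69, and was lower by 0.91 ± 0.22 (limma adjusted p = 0.0197). Of 21 alternatives the call was kept in 10 for ndhH, 11 for rpl33, 12 for psbD and 17 for rps18, which lost it without wild-type 0 h replicate 1 or 24 h replicate 2 among others. In rcf1-1 only rpl36, of the large ribosomal subunit, was called lower, from 10.89 and 10.67 at 0 h to 9.73 and 9.76 at 24 h (−1.03 ± 0.32, adjusted p = 0.0408). Without both replicate 2 arrays rpl36 had an adjusted p of 7.53e-05, and its call was kept in 11 of 21 alternatives. In that fit 18 genes were lower (beside 18.7% of all probe sets) and 6 higher (beside 15.3%; 34.0% in either direction) in rcf1-1. In wild type 8 were lower (beside 12.2%) and 5 higher (beside 12.5%; 24.7% in either direction).

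The 24 h replicates differed more often in chloroplast genes than over all probe sets. Replicate 2 differed from replicate 1 by more than 1 on the log2 scale for 33 of 69 genes in wild type (47.8%). In rcf1-1 it did so for 26 (37.7%). Over all probe sets the shares were 11.7% and 12.1%. Of 11 mitochondrial genes it did so for 3 in wild type (27.3%) and 5 in rcf1-1 (45.5%, above the chloroplast share). At 0 h and 12 h no group had more than 1 such chloroplast gene. The differences were nearly the same in both genotypes, with r = 0.96 over the 69 genes, 0.88 over the 11 mitochondrial genes and 0.69 over all probe sets; 62 of 69 had the same sign. These are descriptions of 4 arrays, with no test. The chloroplast genes also had higher signals, with a median of 9.77 on the wild-type 24 h replicate 1 array beside 4.18 over all probe sets. The part of signal level in these shares was not tested.

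In 14 genes replicate 2 was lower by more than 1 in both genotypes. psaA was lower by 3.57 in wild type (10.37 and 6.80) and by 2.49 in rcf1-1 (9.46 and 6.97), ndhA by 2.91 and 2.55, and atpB, the beta subunit of the ATP synthase, by 2.81 and 2.25. All 6 ATP synthase genes were lower in replicate 2 in both genotypes, with a median of −1.73 in wild type and −1.40 in rcf1-1. In 8 genes replicate 2 was higher by more than 1 in both. psaJ was higher by 2.88 and 2.74, petD by 1.97 and 2.15, rps14 by 1.87 and 2.15, psbN by 1.85 and 2.16, and psbA by 2.05 and 1.59.

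Genes transcribed together differed here as well. psaA was far lower in replicate 2 while rps14, in the same unit, was higher, and in the unit of ndhH, ndhA, ndhI, ndhE and ndhD, ndhA was lower by 2.91 and ndhD higher by 1.46 in wild type. Spearman's correlation between the difference (averaged over genotypes) and gene length was −0.37 over the 69 genes, longer genes being lower in replicate 2. The 5′ deficit of the control probe sets moved with this pattern; its part in the result was not tested.

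**Figure D4:**
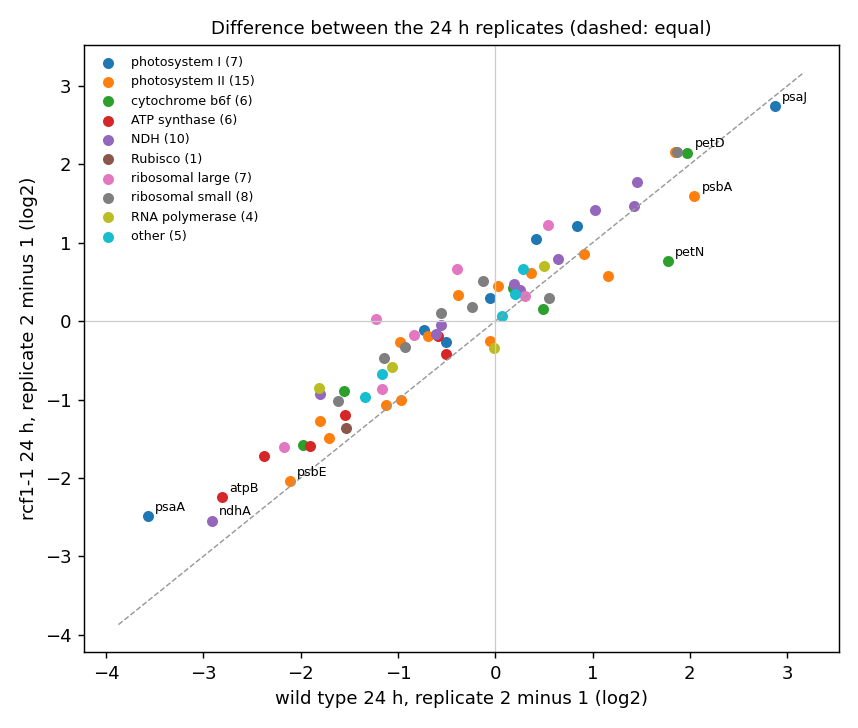
Each point is a chloroplast-encoded gene, with the log2 difference of replicate 2 minus replicate 1 at 24 h in wild type (horizontal) and rcf1-1 (vertical), coloured by class; the dashed line marks equal differences. The points run along the line from psaA and ndhA at the lower left to psaJ at the upper right.

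No chloroplast-encoded gene differed between rcf1-1 and wild type by limma's test with all 12 arrays. The count was 0 of 69 at 0 h beside 0.11% of all probe sets, 0 at 12 h beside 1.35%, 0 at 24 h beside 7.5%, and 0 for the mean over the 3 times beside 8.45%. At an unadjusted p under 0.05 the counts were 0, 5, 0 and 0. A miss does not show equal levels: the 95% interval of the difference lay within 2-fold in either direction for 36 genes at 0 h, 33 at 12 h, 42 at 24 h and 63 for the mean over times.

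At 0 h, 51 of the 69 were lower in rcf1-1, with a median of −0.13 beside −0.02 over all probe sets. Replicates of the same genotype were shifted by a similar amount (median of replicate 2 minus replicate 1: −0.18 for rcf1-1, −0.10 for wild type). In photosystem II 13 of 15 genes were lower, with a median of −0.30, and the 2 that were higher were psbI and psbK. There too the rcf1-1 replicates differed, with every gene of the class lower in replicate 2 (median −0.22, highest −0.015). For the wild-type replicates the class median was −0.055. Genes read on the same array share its shift, and the part of such shifts in these counts was not tested. The smallest p values belonged to ycf3 (−0.56 ± 0.26, adjusted p = 0.752), psbT, a small subunit of photosystem II (−0.73 ± 0.36, 0.797), and psbD (−0.63 ± 0.33, 0.821). psbD read 10.42 and 10.73 in wild type and 10.16 and 9.74 in rcf1-1 at 0 h, with a gap between the genotypes no wider than that between the rcf1-1 replicates. Without both 24 h replicate 2 arrays petD alone was called at 0 h, as lower in rcf1-1 (adjusted p = 0.0442), beside 2.11% of all probe sets lower and 5.35% in either direction, and both its groups are close to the lowest signals.

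At 12 h the largest differences were petN (0.84 ± 0.47), atpF (0.83 ± 0.30), psaI (0.75 ± 0.36) and accD (0.73 ± 0.24), all higher in rcf1-1, with limma adjusted p from 0.222 to 0.571. petN read 6.38 and 6.32 in wild type and 7.18 and 7.20 in rcf1-1 at 12 h, and atpF 8.55 and 8.46 against 9.42 and 9.25. The genotypes did not overlap for any of the 4 genes, but this does not set them apart. With 2 arrays per group such non-overlap was common among the 69 genes at 12 h, in both directions. Its share over all probe sets is not given. Without both 24 h replicate 2 arrays 6 genes were called higher in rcf1-1 at 12 h, beside 5.73% of all probe sets, and none lower, beside 7.92% (13.7% in either direction). They were psaI (adjusted p = 0.00126), petN (0.00647), psaC, the iron-sulphur subunit of photosystem I (0.00836), accD (0.0155), ndhD (0.0197) and atpF (0.0201). The 4 genes with the strongest cold response were not among them, and their genotype differences at 12 h were −0.29 for psbK, −0.10 for psbI, 0.61 for petG and −0.06 for rps16.

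At 24 h the genotype differences ran from −0.50 for rpoC2 to 0.64 for petD. Without both replicate 2 arrays, which leaves 1 array per genotype and assumes that it varies like the other groups, 8 genes were called lower in rcf1-1, beside 11.6% of all probe sets, and 1 higher, beside 9.85% (21.4% in either direction). The gene called higher was petN (1.02, limma adjusted p = 0.00964). Those called lower were psaA, psaB, ndhA, rpoC2, rps3, rpl16, rpl22 and rpl36, of which the last 4 lie in the large ribosomal protein unit. The replicate 2 arrays did not show this: psaA read 6.80 in wild type and 6.97 in rcf1-1 there, against 10.37 and 9.46 in replicate 1.

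**Figure D5:**
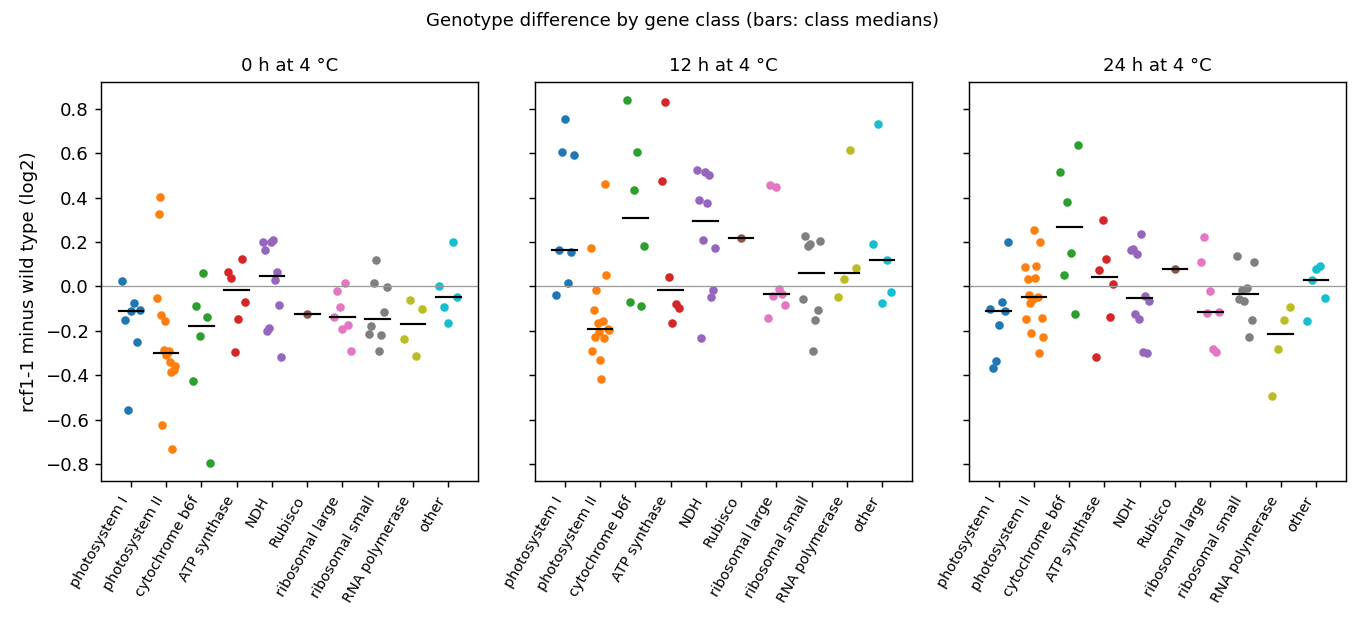
Points are chloroplast-encoded genes, with the log2 difference of rcf1-1 minus wild type (vertical) by class (horizontal) after 0, 12 and 24 h at 4 °C, and bars are class medians. Most photosystem II genes lie below 0 at 0 h, and no gene in any panel passed the test with all 12 arrays.

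Most chloroplast complexes also contain subunits encoded in the nucleus. Few of those listed for comparison were paired with a probe set (6 of 35 photosystem and light-harvesting genes, 3 of 12 for ATP synthase, cytochrome b6f and Rubisco, 3 of 15 for NDH, 4 of 26 for plastid ribosomal proteins, 2 of 16 for plastid RNA binding, 1 of 8 for sigma factors and nuclear polymerases and 0 of 11 for polymerase-associated proteins). None was called between genotypes. LHCB4.2, an antenna protein of photosystem II, fell, with log2 differences of −1.1 at 12 h and −2.51 at 24 h in wild type and −1.24 and −2.68 in rcf1-1. PSBY, a small nuclear-encoded protein of photosystem II, was lower at 24 h by the same test (−1.14 in wild type, limma adjusted p = 0.00748; −0.88 in rcf1-1, 0.0199). RCA was called lower at 24 h in rcf1-1 (−0.80, adjusted p = 0.0169) and missed the threshold in wild type (−0.67, 0.0511). NdhS, a nuclear subunit of the NDH complex, fell too, with −1.68 at 24 h in wild type and −1.15 and −1.40 at 12 h and 24 h in rcf1-1. The 3 nuclear NDH genes all fell at 24 h in wild type, where ndhH alone of the 10 chloroplast-encoded NDH genes was called. In rcf1-1 NdhS alone of the 3 was called at 24 h, with NdhL at −0.42 and NdhN at −0.43, and no chloroplast-encoded NDH gene was. The calls are not alike in precision: the standard errors of the 3 were 0.18 to 0.24, beside a median of 0.34 over the 69. The 4 nuclear genes of plastid ribosomal proteins were called in no cold comparison. RPOTmp, a phage-type polymerase of mitochondria and plastids, rose at 24 h in rcf1-1 by 0.83 (limma adjusted p = 0.023). It read 3.66 and 3.40 at 0 h, close to the lowest signals, and 4.14 and 4.59 at 24 h. The higher 24 h value came from replicate 2. RPOTmp did not pass in wild type.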

How the data were processed

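The authors deposited log2 values for each array, which the submitters' processing notes attribute to RMA. Which software did this, and on which arrays jointly, is not given in the sources used here. The 64 control probe sets served for array quality only. Genes were named through the array annotation and the TAIR10.1 gene table. Groups and replicates came from the labels.

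limma 3.58.1 in R 4.3.3 fitted 1 mean per group on 12 arrays (6 residual degrees of freedom), with eBayes and a trend. The 10 contrasts were adjusted by Benjamini-Hochberg over 22746 probe sets, two-sided, with calls at an adjusted p under 0.05. Errors are limma's standard errors, which pool all groups. The fit was tested on simulated data. The number of arrays limits the precision.

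The members, the classes, the nuclear gene lists and the alternatives were chosen with earlier results of these data known. Any of the 69 genes could be named by class; called genes and those with the smallest p were named per contrast.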

Additional observations from a re-analysis of the deposited data

How the results depend on the processing

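The alternatives were eBayes with no trend, removal of probe sets below the 30th percentile, a repeated quantile normalization, the replicate number as a block, weights for array quality, a term for both 24 h replicate 2 arrays, leaving out both 24 h replicate 2 or both replicate 1 arrays, the compared arrays alone, and each array left out. The mean over a gene's probe sets could not differ, since each gene has 1. No called gene turned its sign in any alternative; psbK, psbI and petG at 12 h in both genotypes and petG at 24 h in rcf1-1 were called in all 21. Counts of called chloroplast genes changed as follows. With weights they were 7 for genotype at 12 h, 9 for wild type and 23 for rcf1-1 at 12 h, 11 for rcf1-1 at 24 h, and 2 for the difference of responses at 12 h. With the replicate 2 term they were 6, 1 and 2 for genotype at 12 h, 24 h and averaged, 17 and 18 for wild type at 12 h and 24 h, 21 and 20 for rcf1-1, and 1 for each difference of responses. Without both replicate 2 arrays they were 1, 6, 9 and 11 for genotype (0 h, 12 h, 24 h, averaged), 20 and 13 for wild type, 26 and 24 for rcf1-1, and 3 and 2 for the differences. Without both replicate 1 arrays they were 1, 6 and 3 for genotype (0 h, 12 h, averaged), 19 and 51 for wild type, 26 and 53 for rcf1-1, and 3 and 2 for the differences. With the compared arrays alone they were 17 for genotype at 12 h, 16 and 1 for wild type, 31 and 3 for rcf1-1, and 3 for the difference at 12 h. The share called over all probe sets also rose without both replicate 2 arrays, as given above. For the other alternatives that share is not given, so their counts do not set the chloroplast genes apart from other probe sets. The cause of these changes was not tested. Leaving out 1 array gave 0 to 0 calls for genotype at 0 h and 12 h and for both differences, 0 to 4 at 24 h, 0 to 1 averaged, 3 to 6 and 1 to 40 for wild type, and 3 to 11 and 1 to 31 for rcf1-1; the 40 and the 31 came without that genotype's 24 h replicate 1.

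With the replicate number as a block, the count for rcf1-1 at 24 h was 12 in place of 5, and the other counts stayed within 1.5 times. The labels do not say that the numbers pair samples: replicate differences of 2 groups correlated over all probe sets at −0.10 to 0.09, apart from 0.69 between the 24 h groups.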

Other observations

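A further 8 probe sets read plastid genes that the annotation lists in 2 copies, rps12 (2 probe sets), rpl2, rpl23, ycf2, ndhB, rps7 and ycf1, and so stood outside the 69. ndhB read 2.53 to 3.44 on the arrays at 0 h and 12 h and on both 24 h replicate 1 arrays, and 5.80 (wild type) and 5.36 (rcf1-1) on the 24 h replicate 2 arrays. rpl23, of the large ribosomal subunit, read 10.05 and 10.16 at 0 h and 11.03 and 10.70 at 12 h in wild type, a difference of 0.76 that did not pass (limma adjusted p = 0.109).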
